A study of Mus musculus with 6 samples.

Results

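This is an account of 10 genes of inflammatory signalling in wounds of diabetic mice, chosen by name from the 33184 genes of the deposited table. They encode the interleukin-1 agonists (Il1a and Il1b), their antagonists (Il1rn and Il1r2), the signalling receptor Il1r1, the alarmin Il33, and the cytokines Tnf, Osm, Il6 and Il10. All 10 genes were found, and all 10 averaged 0.5 FPKM or more over the libraries, the minimum for testing, as did 16005 genes in all. FPKM counts fragments relative to gene length and to library size.

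Interleukin-1 is one of the first signals released in injured skin. IL-1α is stored in keratinocytes and freed when they die, whereas IL-1β is made on demand by neutrophils and macrophages and is cut by caspase-1 before release. Both bind the same receptor, whose signal runs through MyD88 and NF-κB. The receptor antagonist occupies that receptor without a signal, and the decoy receptor Il1r2 binds the agonists without a signal. IL-33 is a nuclear protein of barrier and stromal cells that acts on ST2. TNF, IL-6 and oncostatin M carry inflammation onward, the last 2 through gp130 and STAT3, and IL-10 restrains it.

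RNA-seq was carried out on wounds of db/db mice, which lack a working leptin receptor and become obese and diabetic. A round full-thickness wound of 6 mm was made in dorsal skin, and siRNAs were injected around it at dpi1 (1 day post-injury). NC animals received a control siRNA and the other animals received SFRP2 siRNAs. Wound tissues of both groups were frozen at dpi4, although the sample titles carry day 3, and ages were not given. There were 3 libraries labelled NC and 3 labelled SFRP2-siRNA. No label states that the libraries of a group came from separate animals, so p-values measure the spread between these libraries, which may be technical. All groups were diabetic and wounded, and no uninjured skin was analysed here.

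The libraries held 42.9 M to 47.1 M reads. Sfrp2, the siRNA target, went against the label. Its level was 11.6, 40.6 and 14.1 FPKM in NC 1, 2 and 3, against 50.6, 54.6 and 55.2 FPKM in SFRP2-siRNA 1, 2 and 3. Every direction below is thus that of the libraries by label and does not describe reduced Sfrp2 RNA. The study reported less SFRP2 by immunofluorescence staining of siRNA-treated wounds at dpi3, and protein was not measured here. Marker genes of interfollicular keratinocytes summed to 3481 to 6865 FPKM per library, and all 10 were above 0 in each, so skin was present throughout. In the library labelled SFRP2-siRNA 1, 11 hair follicle markers summed to 24.4 FPKM, against 2518 to 5164 FPKM in the other libraries. Genes of the mitochondrial genome took 35.8%, 22.2% and 17.4% of all FPKM in NC 1, 2 and 3, against 16.6%, 11.8% and 13.8% in SFRP2-siRNA 1, 2 and 3, so this share was lower in every treated library. The part of these differences in the results below was not tested.

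The treated libraries carry the numbers that the study's list gives to 3 siRNAs against SFRP2. Whether each library received the siRNA of its own number is not stated, so sequence and animal cannot be told apart. The 3 sense strands are shown here because the libraries labelled SFRP2-siRNA differed widely among themselves in most of the 10 genes:
SiRNA-1: ggauuccgcuggucaugaa
SiRNA-2: ccaagaaugaggacgacaa
SiRNA-3: ucaacagagacaccaagau
In GENCODE vM21 transcripts each of these 3 sequences of 19 bases matched Sfrp2 exactly and no other gene. The matches lay at positions 457 to 475, 751 to 769 and 838 to 856 of the Sfrp2 transcript ENSMUST00000029625.7. The control siRNA matched no gene.

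Upstream sequences were then examined, since members are known targets of shared transcription factors. The set of RefSeq start sites used here (build GRCm38.p6) held 12 for 8 of the 10 genes, and none for Osm and Il10. The 250 bases before each start site were searched on both strands for 4 motifs. They were a form of the NF-κB motif (3 G, any 2 bases, 3 T and 2 C, in this order), a STAT motif (TTCNNNGAA), the AP-1 motif (TGANTCA) and the box upstream of many start sites (TATAAA). The motifs can overlap. The windows of 4 genes are given 5′ to 3′ on the gene's strand, with matched letters in capitals. They belong to Il1b, Tnf and Il6, common readouts of inflammation, and to the antagonist Il1rn:
Il1b, chr2:129371140-129371389, minus strand: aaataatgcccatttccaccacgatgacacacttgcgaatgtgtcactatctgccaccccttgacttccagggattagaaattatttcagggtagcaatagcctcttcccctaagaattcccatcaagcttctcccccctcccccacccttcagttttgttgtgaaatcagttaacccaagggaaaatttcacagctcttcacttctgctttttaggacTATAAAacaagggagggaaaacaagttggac
Tnf, chr17:35202008-35202257, minus strand: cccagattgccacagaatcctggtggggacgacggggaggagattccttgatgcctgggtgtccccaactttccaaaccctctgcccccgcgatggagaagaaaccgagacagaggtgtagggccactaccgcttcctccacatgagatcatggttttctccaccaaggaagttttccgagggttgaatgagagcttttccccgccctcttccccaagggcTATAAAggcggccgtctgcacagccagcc
Il6, chr5:30012864-30013113, plus strand: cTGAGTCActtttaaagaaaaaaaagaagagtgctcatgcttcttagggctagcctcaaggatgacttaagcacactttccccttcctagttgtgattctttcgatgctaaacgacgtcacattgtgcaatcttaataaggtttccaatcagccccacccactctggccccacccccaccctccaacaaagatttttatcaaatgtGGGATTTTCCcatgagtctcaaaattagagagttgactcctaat
Il1rn, start site 3, chr2:24345121-24345370, plus strand: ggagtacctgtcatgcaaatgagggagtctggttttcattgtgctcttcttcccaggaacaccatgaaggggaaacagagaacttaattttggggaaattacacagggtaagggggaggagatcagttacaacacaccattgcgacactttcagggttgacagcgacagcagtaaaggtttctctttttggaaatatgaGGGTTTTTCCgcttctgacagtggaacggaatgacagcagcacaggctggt
The NF-κB form occurred in 2 of the 12 windows, those of Il6 and Il1rn start site 3, against 1.41% of 32851 windows of all genes. TATAAA occurred in 5 windows (Il1a, Il1b, Tnf and both of Il33), against 12.4% of all. TGANTCA occurred in 3 (Il1a, Il1rn start site 1 and Il6), against 6.75%, and TTCNNNGAA in 1 (Il1r2), against 7.02%. These are matches of letters only, and other forms of each motif were not searched.

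Next, the 10 genes were compared between the groups. Every one was higher by mean in the SFRP2-siRNA group, by 0.10 to 0.95 on the log2(FPKM + 1) scale with a median of 0.52, but none passed the test. No gene of the 16005 (0%) had an adjusted limma p under 0.05 with an absolute log2 fold change above 1. The adjusted limma p-values of the 10 genes ran from 0.518 to 0.920. A log2 fold change above 0 was found for 71.8% of all genes, and the median of all genes was 0.13, so a direction alone says little. Relative to that median, 9 of the 10 genes were higher and Il1a was lower by 0.02. At an unadjusted p under 0.05 there was 1 of 10, Il10, against 9.58% of all genes (1533) in either direction and 6.72% among higher ones. The groups did not overlap for this 1 gene, where 13.9% of all genes were higher and 3.92% lower without overlap.

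**Figure D1:**
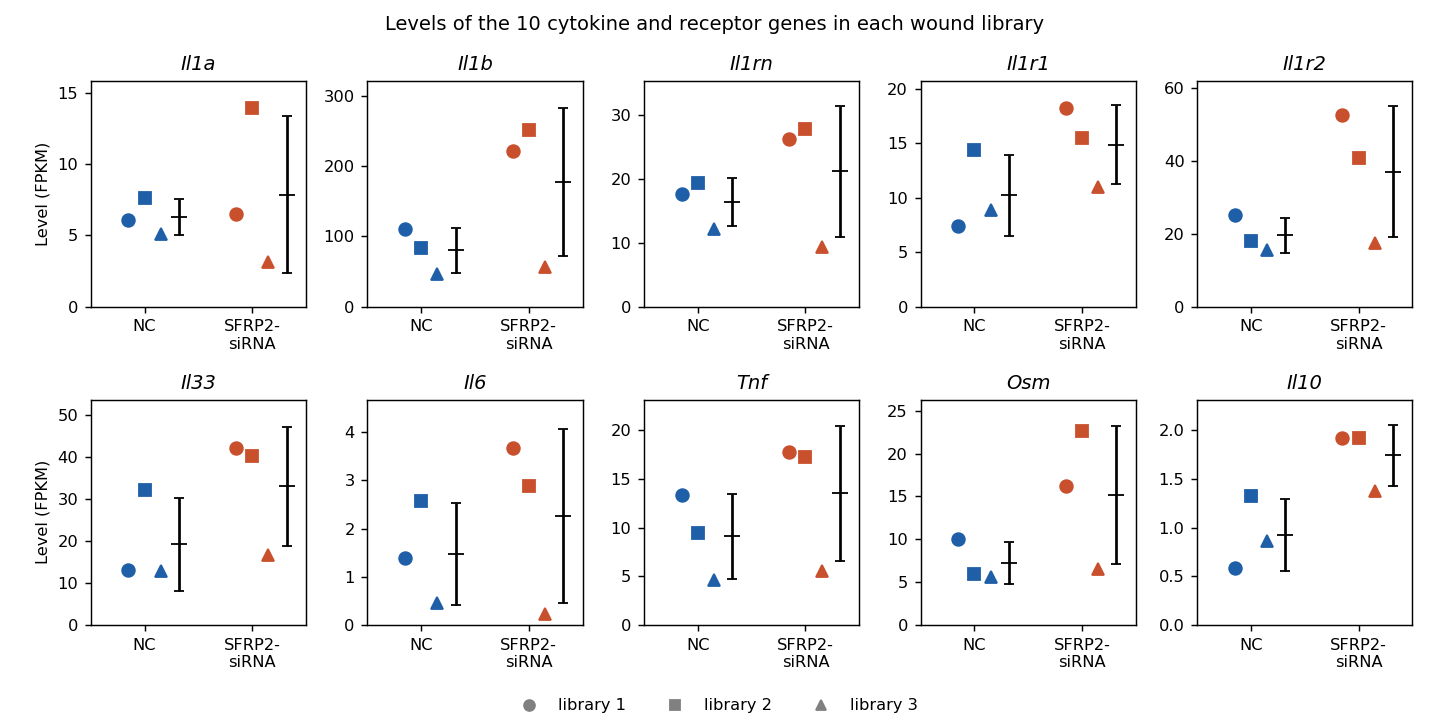
Level in FPKM (vertical axis, from 0) of each of the 10 genes in the 3 NC libraries (blue) and the 3 libraries labelled SFRP2-siRNA (red). Circles, squares and triangles stand for libraries 1, 2 and 3, and the black bars give the mean and SD (n = 3). The red triangle, SFRP2-siRNA 3, is the lowest of its group in all 10 panels, and Il10 is the only panel without overlap.

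The libraries of a group differed among themselves, for most of the 10 genes more widely in the treated group. SFRP2-siRNA 3 was the lowest of its group for 10 of 10 genes, where this held for 28.9% of all genes. SFRP2-siRNA 1 and 2 were both above every NC library for 9 of 10 genes, against 22% of all genes, and the exception was Il1a. In SFRP2-siRNA 3, the same genes lay inside or below the NC range for 9 of 10, and below every NC library for Il1a, Il1rn and Il6. Within NC, library 3 was the lowest for 8 of 10 genes. The share of all genes was not computed for the places of SFRP2-siRNA 3 against the NC range or of NC 3. These counts are therefore description only. These patterns were noticed in the data, and they describe these libraries. The median coefficient of variation of the 10 genes was 49.9% in the treated group and 38.0% in NC, against 14.9% and 19.3% for all genes tested. For Il33, Il1r1 and Il10 the coefficient was larger in NC.

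The interleukin-1 agonists were examined first. Il1b (ENSMUSG00000027398) was the most abundant of the 10 genes in every library. It had 111, 82.9 and 46.9 FPKM in NC 1, 2 and 3, and 223, 253 and 56.5 FPKM in SFRP2-siRNA 1, 2 and 3. SFRP2-siRNA 1 and 2 were thus well above every NC library, while SFRP2-siRNA 3 lay near NC 3, the lowest. Group means of Il1b were 80.3 ± 32.2 and 177 ± 106 FPKM (SD, n = 3 each). The log2 fold change of Il1b was 0.95 with a 95% interval from -0.50 to 2.41 (adjusted limma p 0.561).

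Il1a (ENSMUSG00000027399) did not follow Il1b in all libraries. It had 6.10, 7.64 and 5.12 FPKM in NC, and 6.53, 13.9 and 3.13 FPKM in SFRP2-siRNA 1, 2 and 3. Only SFRP2-siRNA 2 stood above NC, and SFRP2-siRNA 3 was the lowest of all. Group means of Il1a were 6.29 ± 1.27 and 7.86 ± 5.51 FPKM (SD, n = 3 each), and its log2 fold change was 0.10 (95% interval -0.94 to 1.15). The direction of Il1a turned to -0.37 without SFRP2-siRNA 2, to -0.02 without NC 3 and to -0.04 with median-of-ratios scaling.

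The antagonists were examined next. Il1rn (ENSMUSG00000026981) encodes the receptor antagonist. It had 17.6, 19.3 and 12.1 FPKM in NC, and 26.2, 27.8 and 9.31 FPKM in SFRP2-siRNA 1, 2 and 3. SFRP2-siRNA 1 and 2 were above every NC library, and SFRP2-siRNA 3 was below every one. Group means of Il1rn were 16.4 ± 3.77 and 21.1 ± 10.3 FPKM (SD, n = 3 each). Its log2 fold change was 0.23 (95% interval -0.75 to 1.22), which became -0.03 without SFRP2-siRNA 2. Il1r2 (ENSMUSG00000026073), the decoy receptor, had 25.1, 17.9 and 15.7 FPKM in NC. It had 52.8, 41.0 and 17.6 FPKM in SFRP2-siRNA 1, 2 and 3, so that SFRP2-siRNA 3 alone lay among the NC values. Its log2 fold change was 0.78 (95% interval -0.18 to 1.74, adjusted limma p 0.530).

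Il1r1 (ENSMUSG00000026072), the receptor that transmits the signal, had the narrowest range of the 10 genes. It had 7.39, 14.4 and 8.85 FPKM in NC and 18.2, 15.5 and 10.98 FPKM in SFRP2-siRNA 1, 2 and 3. NC 2 stood above the other NC libraries and above SFRP2-siRNA 3. The log2 fold change was 0.53 (95% interval -0.13 to 1.18, adjusted limma p 0.534). Il33 (ENSMUSG00000024810), the alarmin, had 13.0, 32.1 and 12.8 FPKM in NC and 42.3, 40.4 and 16.8 FPKM in SFRP2-siRNA 1, 2 and 3. As for Il1r1, NC 2 was far from NC 1 and 3, and SFRP2-siRNA 3 was far from SFRP2-siRNA 1 and 2. For Il33 the log2 fold change was 0.77 (95% interval -0.34 to 1.88, adjusted limma p 0.552).

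Of the other 4 cytokines, Osm (ENSMUSG00000058755) had the largest log2 fold change. It had 10.01, 5.96 and 5.63 FPKM in NC and 16.3, 22.6 and 6.60 FPKM in SFRP2-siRNA 1, 2 and 3. Group means of Osm were 7.20 ± 2.44 and 15.2 ± 8.06 FPKM (SD, n = 3 each). The log2 fold change was 0.87 (95% interval -0.15 to 1.89, adjusted limma p 0.523). Tnf (ENSMUSG00000024401) had 13.3, 9.43 and 4.62 FPKM in NC and 17.8, 17.2 and 5.53 FPKM in SFRP2-siRNA 1, 2 and 3. NC 1 was the highest control library for both genes, as it was for Il1b and Il1r2. For Tnf the log2 fold change was 0.47 (95% interval -0.72 to 1.67).

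Il6 (ENSMUSG00000025746) spanned the widest range, with a 16.8-fold distance between its highest and lowest library. It had 1.38, 2.57 and 0.458 FPKM in NC and 3.67, 2.88 and 0.219 FPKM in SFRP2-siRNA 1, 2 and 3. Both ends of that range were treated libraries, SFRP2-siRNA 1 and SFRP2-siRNA 3. These values rested on 25 to 383 reads per library. The log2 fold change was 0.28 (95% interval -1.05 to 1.603), and it became -0.05 without NC 3 and -0.09 without SFRP2-siRNA 1.

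Il10 (ENSMUSG00000016529), the anti-inflammatory member, was the least abundant gene by group mean and the one whose groups did not overlap. It had 0.588, 1.32 and 0.866 FPKM in NC 1, 2 and 3, and 1.92, 1.92 and 1.38 FPKM in SFRP2-siRNA 1, 2 and 3. SFRP2-siRNA 3 lay just above NC 2, with 85 against 81 reads. Group means of Il10 were 0.925 ± 0.369 and 1.74 ± 0.314 FPKM (SD, n = 3 each). The log2 fold change was 0.52 (SE 0.17, 95% interval 0.11 to 0.93), with an unadjusted limma p of 0.0208 and an adjusted limma p of 0.518. A two-sided exact permutation test gave p = 0.1, and groups of this size cannot go lower. With a pseudocount of 0.1 in place of 1, the log2 fold change of Il10 was 0.89.

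**Figure D2:**
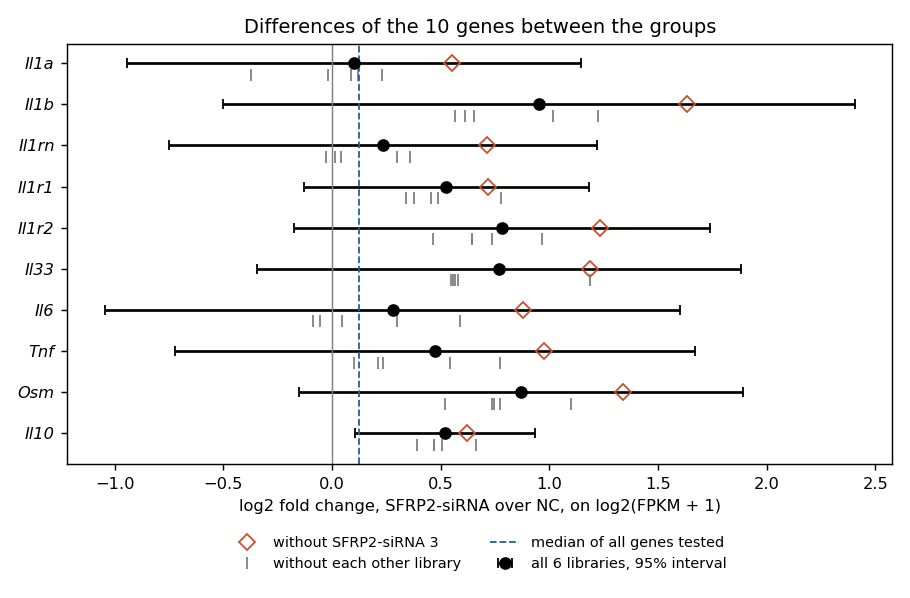
Log2 fold change of the 10 genes, SFRP2-siRNA over NC, on the log2(FPKM + 1) scale. Black points and bars give the value and its 95% interval from limma on all 6 libraries, open diamonds give the value without SFRP2-siRNA 3, grey ticks give the values without each other library, and the dashed line is the median of all genes tested (0.13). All black points are right of 0, some grey ticks of Il1a, Il1rn and Il6 are left of it, and only the interval of Il10 leaves 0 out.

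Leaving out 1 library moved the median of the 10 genes most. Without SFRP2-siRNA 3 the median was 0.93. This library was the lowest of its group for all 10 genes, so leaving it out had to raise every value, and the values without it are a description and no support. The log2 fold change was then 1.63 for Il1b, 1.34 for Osm, 1.23 for Il1r2, 1.19 for Il33, 0.97 for Tnf, 0.88 for Il6 and 0.71 for Il1rn. At an unadjusted p under 0.05 there were then 8 of 10 genes, against 8.86% of all genes, yet the lowest adjusted limma p of a member was 0.444 and no gene was called. Without NC 1, NC 3, SFRP2-siRNA 1 or SFRP2-siRNA 2 the count was 0 of 10, against 5.51%, 8.46%, 9.22% and 5.93% of all genes. Without NC 2 it was 3 of 10, against 12.3% of all genes. Other libraries moved single genes the other way. Tnf had 0.10 without NC 3, 0.21 without SFRP2-siRNA 1 and 0.23 without SFRP2-siRNA 2. Il1b had 0.56 and Osm 0.52 without SFRP2-siRNA 2, and Il1r2 had 0.47 without SFRP2-siRNA 1. Il1r1 had 0.34 without NC 1 and 0.78 without NC 2.

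To compare agonist and antagonist within a library, ratios of FPKM values were formed. They do not depend on the total of the library. Il1rn stood to Il1b as 0.159, 0.233 and 0.258 in NC 1, 2 and 3, and as 0.118, 0.110 and 0.165 in SFRP2-siRNA 1, 2 and 3. Less antagonist per agonist transcript was thus found in SFRP2-siRNA 1 and 2 than in any NC library, and SFRP2-siRNA 3 lay beside NC 1. The difference was -0.72 on the log2 scale with an exact permutation p of 0.2, so it was not beyond the spread. Il1b stood to Il1a as 18.2, 10.8 and 9.16 in NC and as 34.1, 18.2 and 18.1 in SFRP2-siRNA 1, 2 and 3, a difference of 0.87 (exact permutation p 0.2). The ratio of Il1r2 to Il1r1 was 3.39, 1.25 and 1.77 in NC and 2.90, 2.65 and 1.599 in the treated libraries (exact permutation p 0.7). For Il1rn to Il1a the exact permutation p was also 0.7. These 4 ratios form one family, in which no exact p could fall below 0.1.

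**Figure D3:**
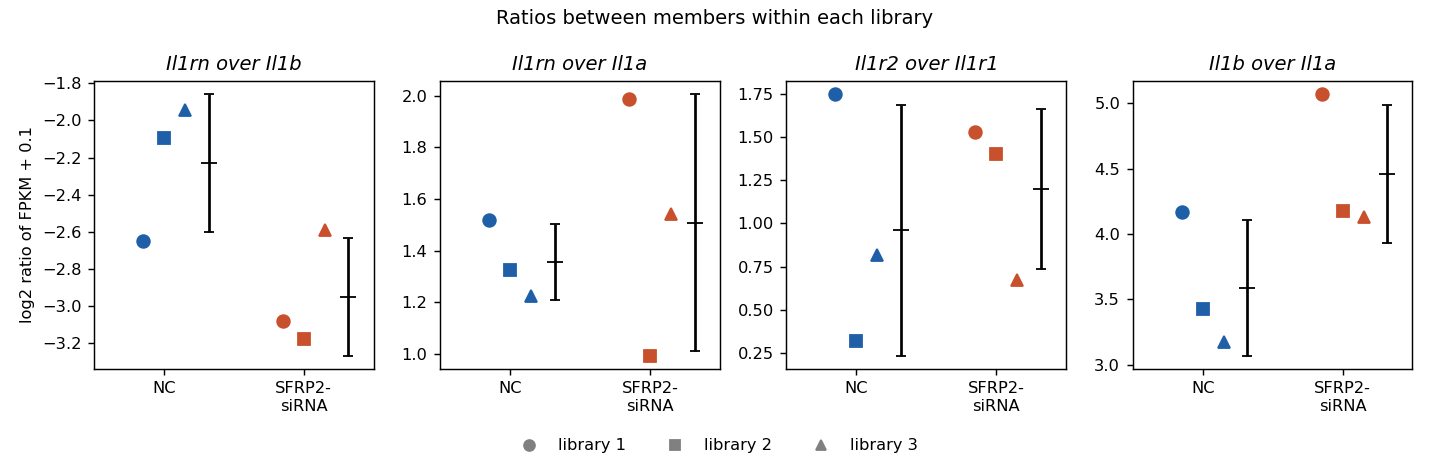
Log2 ratio of FPKM values between pairs of members (vertical axis, with 0.1 added to each value) in NC (blue) and SFRP2-siRNA (red) libraries. Symbols stand for libraries 1 to 3, and bars give the mean and SD (n = 3). In the first panel the mean is -2.23 in NC and -2.95 in SFRP2-siRNA, and NC 1 lies within the treated range.

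A wound biopsy mixes cells, and in bulk tissue fewer cells of a type and less RNA per cell cannot be told apart. Marker genes were therefore summed. The 16 neutrophil markers, all above 0 in each library, summed to 1903, 1782 and 1207 FPKM in NC 1, 2 and 3. They summed to 4826, 5716 and 1064 FPKM in SFRP2-siRNA 1, 2 and 3. SFRP2-siRNA 1 and 2 were high and SFRP2-siRNA 3 low here as well, as for Il1b, Tnf, Osm and Il1r2. Most of these sums came from S100a9 and S100a8. S100a9 had group means of 1218 FPKM in NC and 2997 FPKM in SFRP2-siRNA, and S100a8 had 219 and 490 FPKM. Of the 16 markers 11 were higher and 5 lower by group mean, where 71.8% of all genes were higher by log2 fold change. The median log2 fold change of the markers was 0.69, and 1 was higher without overlap, against 13.9% of all genes. The 5 lower ones were Camp, Ltf, Elane, Mpo and Ngp. The 8 wound-edge keratinocyte markers were likewise high in SFRP2-siRNA 1 and 2 and low in SFRP2-siRNA 3 by their median. They summed to 1791, 3035 and 2874 FPKM in NC and to 2814, 3352 and 1416 FPKM in SFRP2-siRNA 1, 2 and 3. SFRP2-siRNA 3 also stood apart in 8 skeletal muscle markers, which summed to 10883 FPKM there and to 3199 to 5966 FPKM in the other libraries.

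The 16 macrophage and monocyte markers summed to 1140, 1840 and 1232 FPKM in NC and to 2755, 2179 and 2043 FPKM in SFRP2-siRNA 1, 2 and 3, without overlap. All 16 were higher, against 71.8% of all genes, with a median log2 fold change of 0.77. Among these, 6 were without overlap, against 13.9% of all genes higher without overlap. The 10 fibroblast markers summed to 932, 2014 and 1044 FPKM in NC and to 2223 to 2332 FPKM in the treated libraries, also without overlap. NC 2 was the highest NC library for both lists, as it was for Il33, Il1r1, Il6, Il10, Il1a and Il1rn. The 8 mast cell markers summed to 114 to 119 FPKM in NC and to 152 to 240.5 FPKM in the treated libraries. The 10 T cell markers summed to 5.81 to 8.33 FPKM and 5.51 to 9.37 FPKM, with overlap, and 5 of them were too low to test. The median log2 fold change was 0.79 for fibroblast, 0.70 for mast cell and 0.57 for skeletal muscle markers. All 3 of these medians, and those of the neutrophil and macrophage lists, were above the 0.52 of the 10 genes. The medians of the remaining marker lists were below 0.52. They were 0.36 for wound-edge keratinocyte, 0.09 for endothelial and 0.08 for T cell markers. For interfollicular keratinocyte, adipocyte and hair follicle markers they were -0.08, -0.21 and -1.39. The part of these cell types in the differences of the 10 genes was not tested.

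**Figure D4:**
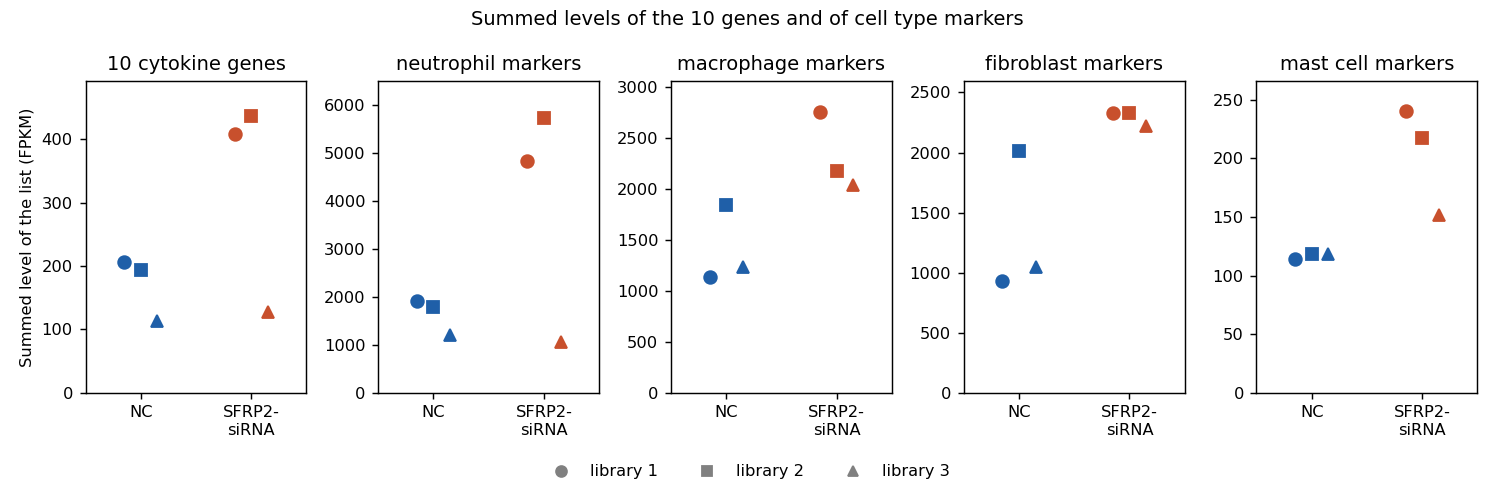
Summed FPKM (vertical axes, from 0) of the 10 cytokine genes and of marker genes of neutrophils, macrophages and monocytes, fibroblasts and mast cells. Blue symbols are NC and red symbols SFRP2-siRNA, with circles, squares and triangles for libraries 1, 2 and 3. SFRP2-siRNA 3 falls back to the NC range for the cytokine genes (128 FPKM) and below it for the neutrophil markers (1064 FPKM), but not for the other 3 lists.

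The rest of the interleukin-1 family was then compared. Of 13 further ligands, receptors and decoys, 7 were higher and 6 lower, where 71.8% of all genes were higher. The median log2 fold change of the 13 genes was 0.10, below the 0.13 of all genes. Il1rl1, the gene of the IL-33 receptor ST2, had 2.35, 3.37 and 1.41 FPKM in NC and 3.82, 3.42 and 5.68 FPKM in SFRP2-siRNA 1, 2 and 3. The groups did not overlap, and SFRP2-siRNA 3 was the highest library, the reverse of its place for Il33. Its log2 fold change was 0.67 (SE 0.26, adjusted limma p 0.518). Il1rap, the accessory chain that completes the interleukin-1 receptor, had 2.30, 2.78 and 2.12 FPKM in NC and 4.48, 4.95 and 2.11 FPKM in the treated libraries, a log2 fold change of 0.46. Il18rap, the accessory chain of the IL-18 receptor, had a log2 fold change of 0.74.

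The 8 receptor genes of the other cytokines were all higher, against 71.8% of all genes, with a median log2 fold change of 0.39. Among them 1 was without overlap, against 13.9% of all genes higher without overlap. Il10ra, the ligand-binding chain of the IL-10 receptor, had 5.53, 11.6 and 6.24 FPKM in NC and 14.6, 14.3 and 10.1 FPKM in SFRP2-siRNA 1, 2 and 3. Its log2 fold change was 0.72 (SE 0.28), and NC 2 lay above SFRP2-siRNA 3. Il6ra had a log2 fold change of 0.40 and was the gene without overlap. Tnfrsf1b, the second TNF receptor, had a log2 fold change of 0.73.

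Among 14 genes of processing and release, 13 were higher, with a median of 0.30 and 2 without overlap. Cma1, the mast cell chymase, had 33.5, 41.9 and 41.1 FPKM in NC and 77.2, 66.1 and 54.7 FPKM in the treated libraries, a log2 fold change of 0.74 (SE 0.18, adjusted limma p 0.518). It is also one of the 8 mast cell markers. Gsdmd, whose protein forms the pore through which IL-1β leaves the cell, had 7.76, 15.8 and 9.62 FPKM in NC and 22.5, 16.0 and 15.9 FPKM in SFRP2-siRNA 1, 2 and 3, so that NC 2 nearly reached the treated group. Ctsg, a protease of neutrophils and mast cells, had a log2 fold change of 0.50.

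Receptor signalling genes were compared next. All 19 genes from MyD88 to NF-κB were higher, against 71.8% of all genes. The median log2 fold change of the 19 genes was 0.16, close to the 0.13 of all genes. It was 0.01 with median-of-ratios scaling. Among them 3 were without overlap (Chuk, Ikbkb and Nfkb1), where 13.9% of all genes were higher without overlap. The smallest unadjusted p-values were those of the kinase Ikbkb (log2 fold change 0.28), the inhibitory kinase Irak3 (0.54) and the subunit Nfkb1 (0.37), and none of the 19 genes passed the adjusted threshold.

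Of 27 target and feedback genes of NF-κB, 25 were higher, against 71.8% of all genes, with a median of 0.46 (0.28 without SFRP2-siRNA 1). Where 13.9% of all genes were higher without overlap, 1 of the 27 did not overlap. This was Mmp3, a matrix protease induced by interleukin-1, with 22.6, 30.7 and 23.3 FPKM in NC and 98.9, 70.2 and 33.8 FPKM in SFRP2-siRNA 1, 2 and 3. Its log2 fold change was 1.26 (SE 0.38, adjusted limma p 0.518). Tnfaip6, which encodes an anti-inflammatory hyaluronan-binding protein, had 4.77, 7.09 and 2.35 FPKM in NC and 6.69, 6.58 and 12.3 FPKM in the treated libraries, with SFRP2-siRNA 3 the highest. Sod2, the mitochondrial superoxide dismutase, was lower by mean, with a log2 fold change of -0.63.

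Of 17 STAT3 target and feedback genes, 14 were higher, against 71.8% of all genes, with a median of 0.26. Saa3, an acute-phase protein made in tissue, had 10.4, 27.3 and 8.06 FPKM in NC and 54.9, 42.4 and 22.1 FPKM in SFRP2-siRNA 1, 2 and 3, a log2 fold change of 1.42 (SE 0.50, adjusted limma p 0.518). Socs1 and Socs3, inhibitors of cytokine signalling, had log2 fold changes of 0.39 and 0.89. Socs1 did not overlap between the groups, and for Saa3 and Socs3 NC 2 lay above SFRP2-siRNA 3.

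Among 30 other cytokine genes in the table, 17 were abundant enough to test. Of these, 15 were higher, against 71.8% of all genes, with a median of 0.38. Tslp, an epithelial cytokine of allergic inflammation, had 1.67, 1.65 and 2.13 FPKM in NC and 12.1, 3.20 and 3.32 FPKM in SFRP2-siRNA 1, 2 and 3, so that SFRP2-siRNA 1 made up most of its log2 fold change of 1.14 (SE 0.43). Il34 and Tgfb1 had log2 fold changes of 0.44 and 0.40. Il5, Il17a, Il17f, Il20, Il22 and Ifng were listed at 0 in at least 1 library. Over these 7 lists no gene passed the adjusted threshold in either direction, and the smallest adjusted p of all genes was 0.518.

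**Figure D5:**
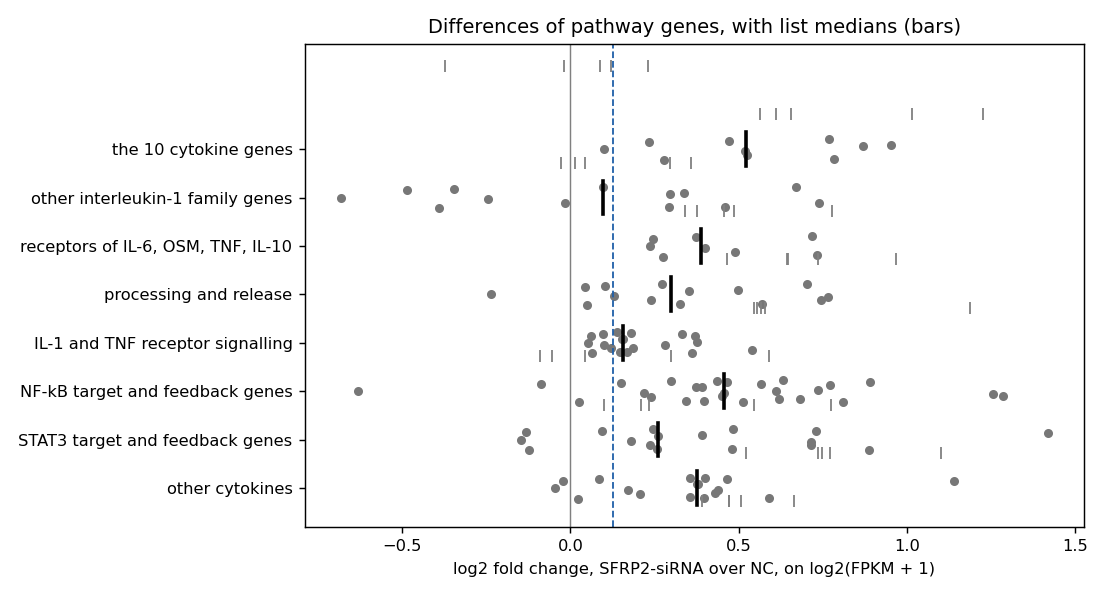
Log2 fold change (horizontal axis, SFRP2-siRNA over NC, on log2(FPKM + 1)) of each gene tested in 8 lists, 1 point a gene, with black bars at list medians. Only the points and black bars are values of these lists. Any small upright ticks inside the panel do not belong to the list beside them and are to be disregarded. The dashed line is the median of all genes tested (0.13). The medians of the 10 cytokine genes (0.52) and of NF-κB targets (0.46) lie farthest right among these 8 lists, which leave out the cell markers, and that of the other interleukin-1 family genes (0.10) lies left of the line.

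The order of levels was similar in both groups. By mean FPKM, Il1b (80.3 in NC) was followed in NC by Il1r2 (19.6), Il33 (19.3) and Il1rn (16.4). Il1r1 (10.2), Tnf (9.12), Osm (7.20) and Il1a (6.29) came next, and Il6 (1.47) and Il10 (0.925) came last. Differences in level between genes were not tested, so the order of neighbours is by mean only. In the libraries labelled SFRP2-siRNA, Il1b (177) was again first, before Il1r2 (37.1) and Il33 (33.1), and Il6 (2.26) and Il10 (1.74) were again last.

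The profiles across the 6 libraries, each gene scaled to mean 0 and SD 1, fell near those of other genes among the 16005. The nearest was Samsn1 for Il1b (distance 0.17), Clec4d for Il1r2 (0.23), Gzmb for Il33 (0.22), Ckap4 for Il1r1 (0.20), Phldb2 for Il10 (0.20) and Rab11fip1 for Il1a (0.39). It was Gm16894 for both Il1rn (0.28) and Il6 (0.32), Gm37691 for Tnf (0.35) and Gm7285 for Osm (0.44). Clec4d is one of the neutrophil markers, with 61.0, 45.8 and 33.4 FPKM in NC and 135, 103 and 39.2 FPKM in SFRP2-siRNA 1, 2 and 3. These names describe likeness over 6 libraries only.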

How the data were processed

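Paired-end mRNA libraries of wound tissues were made by the authors, and the submitters' processing notes name HISAT2, featureCounts and Subread, without versions. The genome build and annotation are not given in the sources used here. The authors deposited one table of FPKM values with 1 column per library, and columns were matched to samples by title. Symbols matched 32582 of 33184 gene IDs. The members and gene lists were chosen with earlier results of these data known.

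Low FPKM values were whole multiples of 1 read. With exon lengths from GENCODE vM21, whole reads (within 0.01 read) were found in all libraries for 96.5% of genes. Of values from 1 to 20 reads 64.6% were even, so mates were counted singly and reads are not independent. Counting intervals would therefore be too narrow, and none are given.

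The study states a count model for its comparison. FPKM values are not counts, so values were tested as log2(FPKM + 1) with limma 3.58.1 in R 4.3.3 (intensity trend, two-sided, Benjamini-Hochberg adjustment over 16005 genes), at its stated thresholds: adjusted p below 0.05 together with a log2 difference of more than 1 in size. Fold changes on this scale understate those of low genes. Ratios were tested with the exact permutation test over libraries (two-sided). Named genes were the 10 members, Sfrp2, the 3 genes of lowest p from each pathway list, and the nearest profile of each member. Il36a, Il36b, Il36g and Il36rn were matched through older symbols, and Il2 was not analysed here. As alternatives, 0.1 was added in place of 1, the filter was dropped or set at 2 FPKM, and fits were made with 2 scalings, no trend, a replicate block, voom on recovered reads, and leaving out each library. The scripts were tested on simulated data. No 2 libraries shared values.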

Additional observations from a re-analysis of the deposited data

How the results depend on the processing

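No gene was called under any of the 14 alternatives, and the lowest adjusted limma p of a member was 0.268, without NC 2. Of 138 refitted values of the 10 genes, 132 kept their direction and 6 turned, in Il1a, Il1rn and Il6. Many of the 132 could not turn, because the changed filters, the fit without trend and the replicate block leave each log2 fold change as it was. The count of 132 is thus no measure of stability. Il1a was -0.039 with median-of-ratios scaling. Leaving out each of the 6 libraries in turn, the log2 fold change ran from -0.37 to 0.55 for Il1a, -0.028 to 0.71 for Il1rn, -0.089 to 0.88 for Il6, 0.56 to 1.63 for Il1b, 0.10 to 0.97 for Tnf, 0.47 to 1.23 for Il1r2 and 0.52 to 1.34 for Osm. Over the same fits the median of processing and release genes ran from 0.12 (without NC 1) to 0.42, that of NF-κB targets from 0.28 (without SFRP2-siRNA 1) to 0.69 (without SFRP2-siRNA 3), that of STAT3 targets from 0.22 to 0.52 (without SFRP2-siRNA 3), that of other cytokines from 0.20 (without NC 3) to 0.49, that of the other interleukin-1 family from -0.0063 (without SFRP2-siRNA 2) to 0.18, the log2 ratio of Il1rn to Il1a from -0.088 to 0.41 and that of Il1r2 to Il1r1 from -0.083 to 0.63. The median of receptor signalling genes was 0.013 with median-of-ratios scaling, which shifted the median of all genes from 0.13 to -0.00011. The cause of the other turns was not tested. The number of genes at an unadjusted p under 0.05 ran from 887 (without NC 1) to 2226 (no filter). With libraries rescaled to equal sums, 3 of the 10 genes had an unadjusted p under 0.05, against 8.09% of all genes.

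Whether same-numbered libraries form pairs could not be told. Their deviations from their groups correlated at -0.05, -0.15 and 0.38 for numbers 1, 2 and 3. Under a replicate block 0 genes were called and 4 of the 10 genes had an unadjusted p under 0.05, against 12.1% of all genes. The smallest adjusted limma p of all genes was 0.193 with the block and 0.518 without it. In this balanced design a block cannot change a difference between the groups. The median of the 10 genes (0.52) and the log2 ratio of Il1rn to Il1b (-0.72) were therefore the same under it by construction. A filter at 2 FPKM left out Il6 and Il10. Il6 and Il10 rest on at most 383 and 114 reads per library, which limits their precision.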
